A study of Mus musculus with 8 samples.

Results

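The mitochondrial ribosomal protein genes of mouse embryonic stem cells (mESCs) were followed in space and on the ground, in 2 genotypes and at 2 culture durations. A gene was taken as a member when its Ensembl identifier in the count table belongs to a protein-coding mouse gene whose symbol begins with Mrpl or Mrps and a number. There were 77 members among 50686 identifiers, of which 48 are named Mrpl and 29 Mrps. Of 82 identifiers that matched the symbol pattern, 4 annotated pseudogenes were left out, as was Mrps36-ps1, which RefSeq lists as a pseudogene. Mrpl57 and Mrpl58 were found through their older symbols Mrp63 and Ict1, and Mrpl33 was not analysed here.

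The study asked how spaceflight and loss of Rad9, a gene of cell cycle checkpoint control and DNA repair, affect the transcriptome of mESCs. R9wt cells are wild-type and R9del cells are Rad9-/-, and each was kept for 1 day (D1) or 5 days (D5) in a culture device aboard a recoverable satellite (Space) or in the same payload design on Earth (Ground). RNA was sequenced as 8 libraries, 1 for each combination of location, genotype and day. All devices ended with injection of RNAlater and cold storage before RNA extraction, and a space library also carries launch, return and space radiation, which cannot be told apart from weightlessness. In the paper, D5 devices were seeded with fewer cells than D1 devices, and at D5 more R9del than R9wt cells were seeded. D1 and D5 devices stood on separate temperature controllers, and D1 cells were fixed earlier. The sources used here do not give how many clones the R9del line comes from. A group of 4 libraries therefore pools genotypes, days or locations, and its spread is the spread over those conditions, not over repeated cultures.

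The mitochondrial ribosome translates the few messenger RNAs encoded by mitochondrial DNA, all of which specify membrane subunits of the oxidative phosphorylation complexes. Its proteins are encoded in the nucleus, made in the cytosol and imported. Some descend from bacterial ribosomal proteins and others were added in the course of mitochondrial evolution, and a small subunit reads the messenger while a large subunit forms the peptide bond. By the current nomenclature 50 members belong to the large subunit, among them Mrps18a (mL66) and Mrps30 (mL65) in spite of their names, and 26 belong to the small subunit. Mrps36 encodes a component of the 2-oxoglutarate dehydrogenase complex and is counted in neither. A bacterial homologue is known for 47 members and 30 are specific to mitochondria.

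Library totals lay between 58238440 and 96416907 counts, and the ground libraries of R9wt were the deepest. Members made up 0.421% to 0.686% of the counts of a library. All 10 embryonic stem cell markers examined reached a mean of 1 CPM (counts scaled to 1000000 per library), and their summed level was 5476 to 8255 CPM on the ground and 4493 to 6135 CPM in space. Summed primitive endoderm markers ranged from 30.1 to 66.2 CPM on the ground and from 16.9 to 220 CPM in space, and all 6 of them reached a mean of 1 CPM. Summed trophoblast markers ranged from 94.0 to 323 CPM on the ground and from 55.8 to 519 CPM in space, with 4 of 6 reaching a mean of 1 CPM. Each list held single markers that differed between space and ground. By edgeR's quasi-likelihood test Sox2 was lower in space (log2 fold change -0.97, adjusted p = 0.027) and Esrrb higher (1.16, adjusted p = 0.0079) among the stem cell markers, while Sox17 of primitive endoderm fell from a mean of 4.12 to 0.272 CPM and Cdx2 of trophoblast from 1.53 to 0.187 CPM. Of the 10 stem cell markers 7 were below 0, with a median log2 fold change of -0.45. Sox17 was the only 1 of 6 primitive endoderm markers below 0, the list's median log2 fold change being 1.26, and 2 of 5 trophoblast markers tested were below 0, with a median of 0.11. Elf5 of trophoblast was at 0 in at least 1 library, and no other marker of these 3 lists was at 0 in any. Of 5 mesendoderm markers 4 were below 0, with a median log2 fold change of -0.80. None of them was called, and 1 was lower at an unadjusted p under 0.05 in the same test. Of 4 fibroblast or feeder markers tested 1 was below 0 (median 0.41), and of 3 neural markers 0 were (median 0.11). The part of these markers in the differences below was not tested. Rad9a, the targeted gene, was measured at 20.8 to 28.6 CPM in R9del and 70.3 to 93.4 CPM in R9wt libraries, a log2 fold change of -1.77 (SE 0.21; edgeR quasi-likelihood test, adjusted p = 0.027).

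The comparison of space with ground asks which genes differ whatever the genotype and day. In it 7 members fell and none rose. Mrps24, Mrps26, Mrps34 and Mrps35 of the small subunit and Mrpl3, Mrps30 and Mrpl1 of the large subunit were lower in all 4 space libraries than in any ground library, by a factor between 22.1 for Mrps24 and 1.95 for Mrpl1. A member was called when edgeR's quasi-likelihood test over 20544 genes, with 4 libraries against 4, gave a Benjamini-Hochberg adjusted p under 0.05. It was reached downwards by 7 of 77 members (9.09%), against 5.31% of all genes tested, and upwards by 0 members, against 1% of all genes. At an unadjusted p under 0.05, 21 members (27.3%) were lower, against 11.7% of all genes, and 0 were higher, against 7.02%. The count of 21 was 11 without the space library of R9wt D5, 12 without the ground library of R9wt D1, 13 without the space library of R9del D1 and 31 without that of R9del D5. DESeq2's Wald test called 9 members lower (11.7%), against 8.05% of all genes, and 0 higher, against 4.12%. At the threshold of the original analysis, a fold change of at least 2 with an unadjusted p under 0.05, 6 members (7.79%) were lower, against 8.39% of all genes, and 0 were higher, against 2.58%. The RNA came from whole cultures, so fewer cells of a kind and less of an RNA per cell cannot be told apart.

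Mrps24 encodes uS3m, the counterpart of a bacterial protein at the entrance of the messenger channel, and lies at chr11:5603986-5615683 on the minus strand in mm9 with 4 exon blocks. The ground libraries held 94.2 CPM in R9wt D1, 109 in R9wt D5, 65.2 in R9del D1 and 75.1 in R9del D5, and the space libraries held 2.78, 2.65, 4.69 and 5.40 in the same order. Space and ground did not come near to overlapping, and within each location the 2 genotypes separated in opposite order, R9wt being the higher on the ground and the lower in space. The mean in space was 4.52% of the mean on the ground, with 3.88 ± 1.38 against 85.8 ± 19.5 CPM (SD, n = 4), and the log2 fold change was -4.47 (SE 0.34; edgeR, adjusted p = 6.4e-05).

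Mrps26 encodes mS26, a small subunit protein specific to mitochondria, at chr2:130389478-130394431 on the plus strand. It was measured at 57.7, 47.6, 66.0 and 59.6 CPM on the ground and 4.08, 3.87, 6.94 and 8.67 CPM in space, again in the order R9wt D1, R9wt D5, R9del D1, R9del D5. Here the R9del libraries were above the R9wt libraries at both locations. The log2 fold change between space and ground was -3.29 (SE 0.32; edgeR, adjusted p = 2.3e-04).

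Mrpl3 encodes uL3m, whose bacterial counterpart reaches towards the peptidyl transferase centre, at chr9:104955569-104979796 on the plus strand. Its levels were 111, 72.0, 104 and 96.4 CPM on the ground and 8.08, 12.4, 12.9 and 18.3 CPM in space. The highest space library, R9del D5, still held less than the lowest ground library. The log2 fold change was -2.89 (SE 0.29; edgeR, adjusted p = 2.5e-04).

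Mrps34 encodes mS34, a mitochondria-specific small subunit protein in which human mutations cause Leigh syndrome, at chr17:25032061-25034447 on the plus strand. The ground libraries lay close together at 42.2, 41.6, 45.2 and 37.0 CPM, and the space libraries were at 4.02, 5.67, 9.11 and 11.3 CPM. The R9del space libraries were the higher ones. The log2 fold change was -2.46 (SE 0.34; edgeR, adjusted p = 0.0016). Exons of other genes cover 77.8% of the exon length of Mrps34, and reads of the 2 genes concerned, Nme3 and Mapk8ip3, could have been shared with it in counting. Neither neighbour was called, with log2 fold changes of 0.11 for Nme3 (SE 0.39; edgeR, adjusted p = 0.93) and 0.35 for Mapk8ip3 (SE 0.27; edgeR, adjusted p = 0.56). For Mrps24 the overlapped share was 15.4%, with Urgcp, whose log2 fold change was 0.92 (SE 0.43; edgeR, adjusted p = 0.28).

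Mrps35 encodes mS35, also specific to mitochondria, at chr6:146991286-147019425 on the plus strand. It stood at 68.6, 48.7, 72.0 and 72.4 CPM on the ground and at 16.4, 16.7, 16.8 and 27.5 CPM in space. The first 3 space libraries were nearly equal and R9del D5 was above them. The log2 fold change was -1.76 (SE 0.25; edgeR, adjusted p = 0.0023).

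Mrps30 encodes mL65, a large subunit protein, at chr13:119168917-119176059 on the minus strand. On the ground it was measured at 36.7, 75.5, 22.4 and 61.7 CPM, the D5 libraries being above the D1 libraries in both genotypes. In space it was measured at 7.36, 10.1, 6.89 and 8.55 CPM, with the same order of days and a narrower range. The log2 fold change was -2.58 (SE 0.38; edgeR, adjusted p = 0.0026).

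Mrpl1 encodes uL1m, the protein of the stalk beside the exit site for transfer RNA, at chr5:96638512-96695746 on the plus strand. Its levels were 58.2, 56.1, 45.4 and 42.5 CPM on the ground and 24.6, 24.5, 28.3 and 26.5 CPM in space. The groups did not overlap, yet the difference was smaller than in the other members called, with a log2 fold change of -0.96 (SE 0.20; edgeR, adjusted p = 0.018). The adjusted p rose to 0.0665 without the ground library of R9wt D1, to 0.0595 without the space library of R9wt D5 and to 0.0523 without that of R9del D5.

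**Figure D1:**
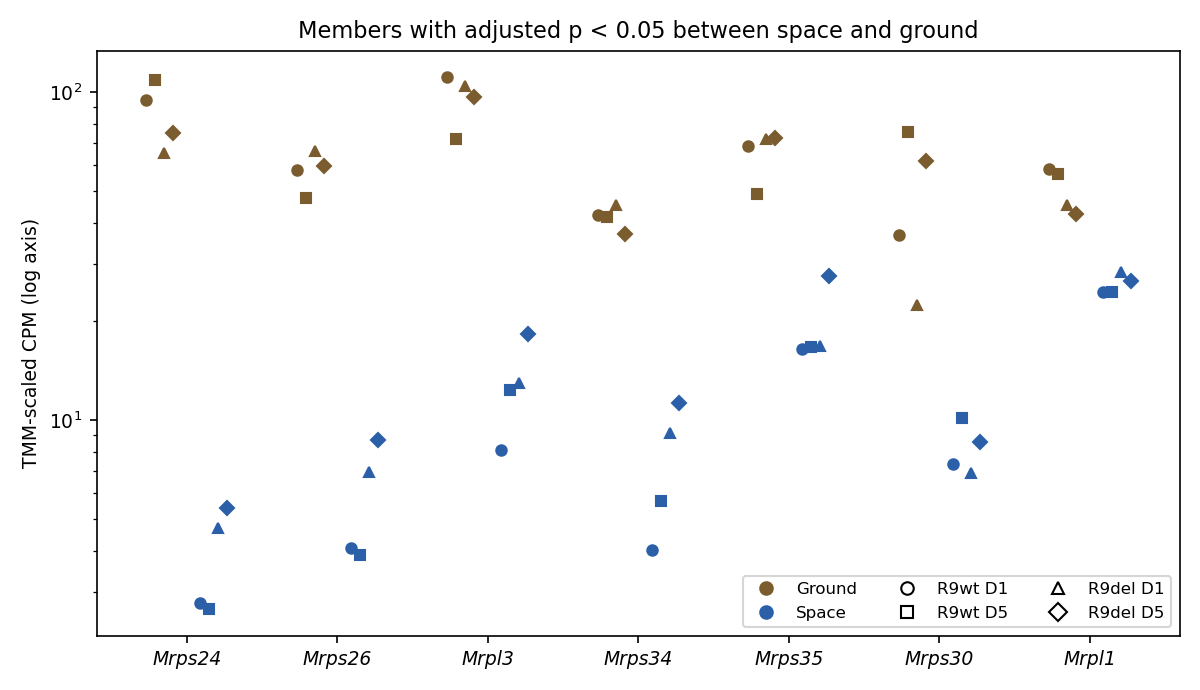
TMM-scaled CPM (log axis) of the 7 members called in the comparison of space with ground, 1 point per library, with location shown by colour and genotype and day by symbol. No space point reaches a ground point of the same gene, and the gap is widest for Mrps24 (2.65 to 5.40 against 65.2 to 109 CPM) and narrowest for Mrpl1.

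The DNA before the transcription start is shown for the called members that have an entry in the RefSeq promoter table (GRCm38.p6), because genes of the mitochondrial ribosome often carry sites for nuclear respiratory factors there. Each sequence is the 150 bases upstream of the annotated start, 5′ to 3′ on the strand of the gene. Capitals mark a match to CCGGAAG, the core bound by ETS factors such as GABP, on either strand.
Mrps24, chr11:5707702-5707851, minus strand: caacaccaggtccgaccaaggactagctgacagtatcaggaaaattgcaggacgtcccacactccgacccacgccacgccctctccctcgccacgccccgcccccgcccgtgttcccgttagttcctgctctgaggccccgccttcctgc
Mrps26, chr2:130563607-130563756, plus strand: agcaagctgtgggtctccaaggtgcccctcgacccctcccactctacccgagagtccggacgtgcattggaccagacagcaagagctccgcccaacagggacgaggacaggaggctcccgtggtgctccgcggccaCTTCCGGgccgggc
Mrpl3, chr9:105053118-105053267, plus strand: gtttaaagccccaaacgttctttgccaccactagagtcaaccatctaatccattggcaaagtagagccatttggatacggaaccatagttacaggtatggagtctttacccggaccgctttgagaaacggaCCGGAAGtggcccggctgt
Mrps30, chr13:118387253-118387402, minus strand: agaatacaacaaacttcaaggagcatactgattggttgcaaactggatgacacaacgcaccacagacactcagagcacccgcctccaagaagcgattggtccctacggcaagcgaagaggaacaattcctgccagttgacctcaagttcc
Mrpl1, chr5:96209965-96210114, plus strand: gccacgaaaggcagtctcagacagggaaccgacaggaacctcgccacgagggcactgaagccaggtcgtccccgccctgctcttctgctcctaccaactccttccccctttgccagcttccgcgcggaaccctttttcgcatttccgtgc
Mrps34 and Mrps35 are named only. In the table's full window of 250 bases before to 50 after the start, 68 members had an entry. CCGGAAG was found on either strand in 25 of those 68 (36.8%), against 9.93% of 27025 genes in the table. TGCGCA, the repeated core of the NRF1 site, which reads the same on both strands, was found in 21 members (30.9%), against 8.79% of all genes, and the YY1 core AAGATGGC on either strand in 12 (17.6%), against 3.19%. The SP and KLF core GGGGCGG was in 35.3% of members and 25.5% of all genes, and CCAAT was in 38.2% and 41.1%. Among the 4 members at least 2-fold lower in space that have an entry, 3 held CCAAT, 2 held CCGGAAG, and TGCGCA, AAGATGGC and GGGGCGG were each held by 1. These matches are letters in a window, and binding was not measured.

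Below the called members the differences were small and nearly all on the same side. The log2 fold change was below 0 for 70 of 77 members (90.9%), against 49.1% of all genes tested, and its median was -0.38, against 0.01 over all genes. Without the 6 members that were at least 2-fold lower, the median of the other 71 was -0.36. Groups did not overlap, with space below ground, for 14 members (18.2%), against 9.38% of all genes, and with space above ground for 0, against 5.06%. Space was below ground in all 4 pairs for 28 members (36.4%), against 18.1% of all genes, and above it in all 4 for 0, against 14.9%. In the small subunit 4 of 26 members fell (15.4%; median log2 fold change -0.50), and in the large subunit 3 of 50 fell (6%; median -0.36), against 5.31% of all genes. Of the members with a bacterial homologue 3 of 47 fell (6.38%), and of those specific to mitochondria 4 of 30 fell (13.3%). The shares of the large subunit and of the members with a bacterial homologue were thus near that of all genes, and the splits were not tested against each other.

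Among the members short of the threshold, Mrps15, which encodes uS15m, stood at 110, 112, 98.8 and 89.8 CPM on the ground and at 54.2, 57.95, 64.9 and 77.8 CPM in space, in the order of conditions used above. The groups did not overlap, and the log2 fold change was -0.69 (SE 0.19; edgeR, adjusted p = 0.064). Mrps12, the counterpart of the bacterial protein at the decoding centre, was at 49.7, 58.8, 39.4 and 45.1 CPM on the ground and 24.6, 32.2, 24.2 and 33.8 CPM in space, with a log2 fold change of -0.75 (SE 0.22; edgeR, adjusted p = 0.084). Mrps7, which encodes uS7m of the small subunit head, held 112, 64.0, 138 and 114 CPM on the ground and 22.1, 47.9, 66.6 and 81.9 CPM in space, so its groups overlapped. Its log2 fold change of -0.97 (SE 0.39; edgeR, adjusted p = 0.21) was as large as that of Mrpl1, with a wider spread between libraries.

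On the other side of 0 the lowest p-values belonged to Mrps5, Mrpl50, Mrpl53 and Mrpl35, and none was called. Mrps5, which encodes uS5m, was at 120, 88.3, 83.8 and 83.2 CPM on the ground and at 111, 96.02, 96.2 and 108 CPM in space, a log2 fold change of 0.13 (SE 0.19; edgeR, adjusted p = 0.78). Mrpl50, a mitochondria-specific protein of the large subunit, had a log2 fold change of 0.05 (SE 0.18) with means of 103 and 99.3 CPM. Mrpl53 and Mrpl35 had log2 fold changes of 0.11 (SE 0.38) and 0.06 (SE 0.26), and the adjusted p was above 0.9 for Mrpl50, Mrpl53 and Mrpl35 in the same test.

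**Figure D2:**
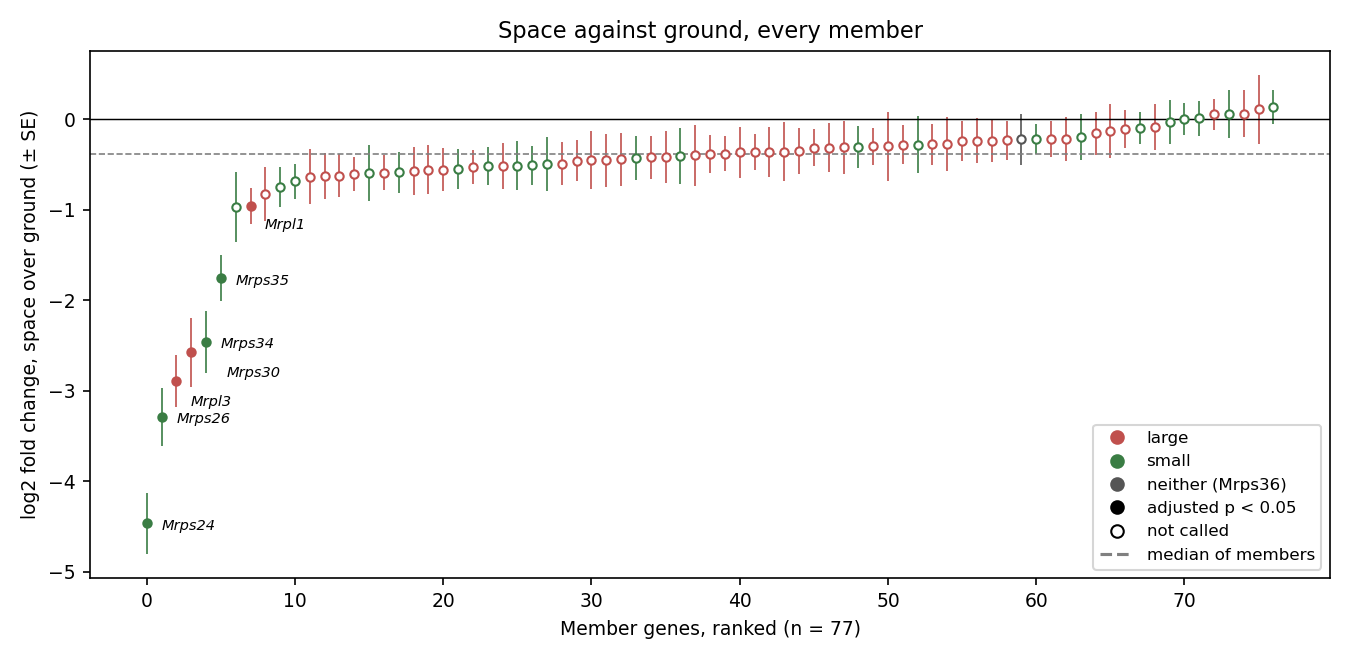
Log2 fold change of space over ground for each of the 77 members, ranked, with its standard error; colour gives the subunit, filled points have an adjusted p < 0.05 and the dashed line is the median of the members (-0.38). The 6 lowest members stand apart between -4.47 and -1.76, and 64 of the other 71 lie between 0 and -0.97.

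Space and ground libraries that share genotype and day form 4 pairs, and these were not alike. The median log2 ratio of the members was -0.83 for R9wt D1, -0.36 for R9wt D5, -0.45 for R9del D1 and 0.03 for R9del D5, while the median of all genes lay between -0.07 and 0.02. A ratio of at least 2-fold downwards was reached by 28 members in R9wt D1 (19.6% of all genes did so), 12 in R9wt D5 (20.1% of all genes), 8 in R9del D1 (12.6%) and 6 in R9del D5 (15.9%). No member was at least 2-fold higher in any of these pairs, against 15.8%, 18.1%, 10.2% and 9.05% of all genes in the same order. In R9del D5 35 members were below and 42 above their ground library. The ratios compare single libraries and have no replicate.

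The 6 members at least 2-fold lower in every pair were Mrps24, Mrps26, Mrpl3, Mrps34, Mrps35 and Mrps30 (7.79% of members, against 4.84% of all genes). They were the only ones past 2-fold in R9del D5, with log2 ratios of -3.79, -2.78, -2.40, -1.71, -1.40 and -2.85 in that order. Mrps7 and Mrpl12, whose protein bL12m forms the stalk that recruits translation factors, had their lowest ratios in R9wt D1, with log2 values of -2.33 and -1.93 there. In the other pairs the ratio of Mrps7 was -0.42, -1.05 and -0.47, and that of Mrpl12 was -0.42, -0.58 and 0.17, for R9wt D5, R9del D1 and R9del D5. Mrps7 was thus more than 2-fold lower at D1 in both genotypes and below its ground library in all 4 pairs, whereas Mrpl12 was past 2-fold in R9wt D1 only.

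**Figure D3:**
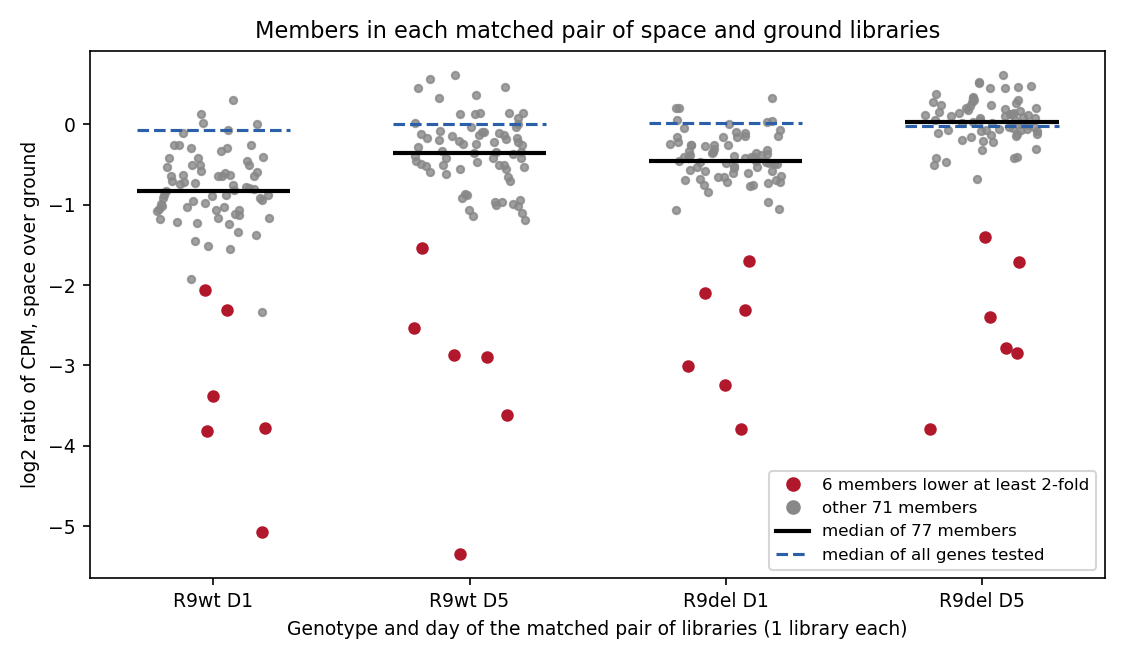
Log2 ratio of space over ground CPM for every member in the 4 matched pairs of libraries; red points are the 6 members at least 2-fold lower in each pair, black bars the median of the members and blue dashed bars the median of all genes tested. The grey points lie mostly below 0 in R9wt D1 (member median -0.83) and around 0 in R9del D5 (member median 0.03). The red points were chosen from the same libraries, as called members with a log2 fold change of -1 or lower, and lie below -1 in each pair.

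Summed over all 77 members, the level was 7293, 5947, 6093 and 5700 CPM on the ground and 4259, 4195, 4603 and 5599 CPM in space, in the order R9wt D1, R9wt D5, R9del D1, R9del D5. With TMM scaling the groups did not overlap, although the space library of R9del D5 came close to the lowest ground library. It lay above the lowest ground library with DESeq2 size factors (5698 against 5622 CPM) and with library size alone (5734 against 5522 CPM). The 6 members at least 2-fold lower contributed 375 to 410 CPM of the sum on the ground and 43 to 80 CPM in space. The sum over the other 71 was 5298 to 6882 CPM on the ground and 4144 to 5519 CPM in space, and there the space library of R9del D5 lay above the lowest ground library.

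**Figure D4:**
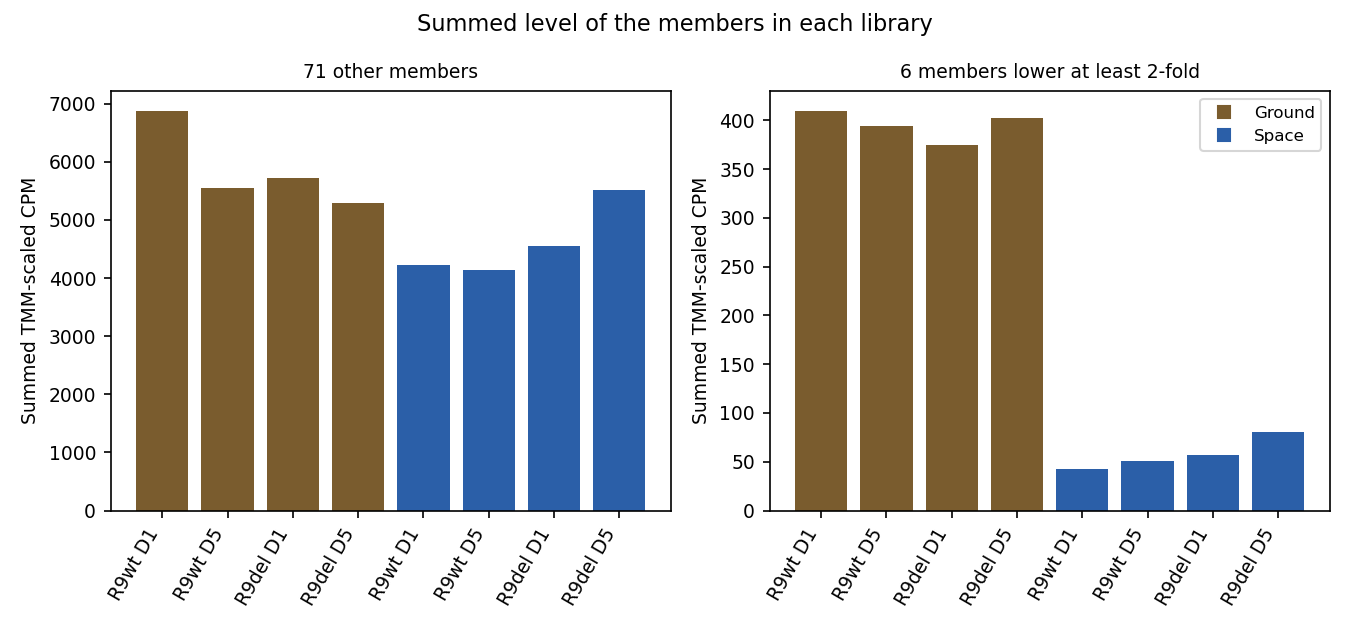
Summed TMM-scaled CPM of the members in each library, as bars from 0, for the 71 other members (left) and the 6 members at least 2-fold lower (right), coloured by location. The right panel falls from at least 375 CPM on the ground to at most 80 CPM in space, and in the left panel the space library of R9del D5 (5519 CPM) overlaps the ground libraries.

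The 6 members were compared with the other 71 in properties of their sequence. The most GC-rich window of 200 bases in the transcript had a GC content of 69% to 75.5% (median 73.5%) in the 6 and of 52% to 77.5% (median 65%) in the 71. Over the whole transcript the medians were 51.9% and 51.4%. In all coding genes called lower in space the median of the richest window was 75.5%, against 67% over all coding genes tested. Among the other members 16 had a window of at least 69% GC, and their log2 fold changes lay between -0.97 and 0.01. Across the 77 members Spearman's rho of log2 fold change with the richest window was -0.29, with transcript GC -0.18 and with transcript length 0.08. Over all 15574 coding genes tested the same values were -0.24, -0.09 and 0.30, so the value for the richest window was close to that of coding genes at large. The members were measured in the same libraries, so these are descriptions. The share of 50-base stretches found elsewhere in the genome was 0% to 5.91% in the 6 members and 0% to 85.9% in the other 71 (median 0.267%). Among members named here it was highest for Mrps36 (85.9%), Mrpl23 (76.4%), Mrps18b (58.8%), Mrpl27 (52.3%), Mrps33 (49.0%) and Mrpl22 (40.7%), whose reads the counting could have placed elsewhere. The part of GC content in the differences was not tested.

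**Figure D5:**
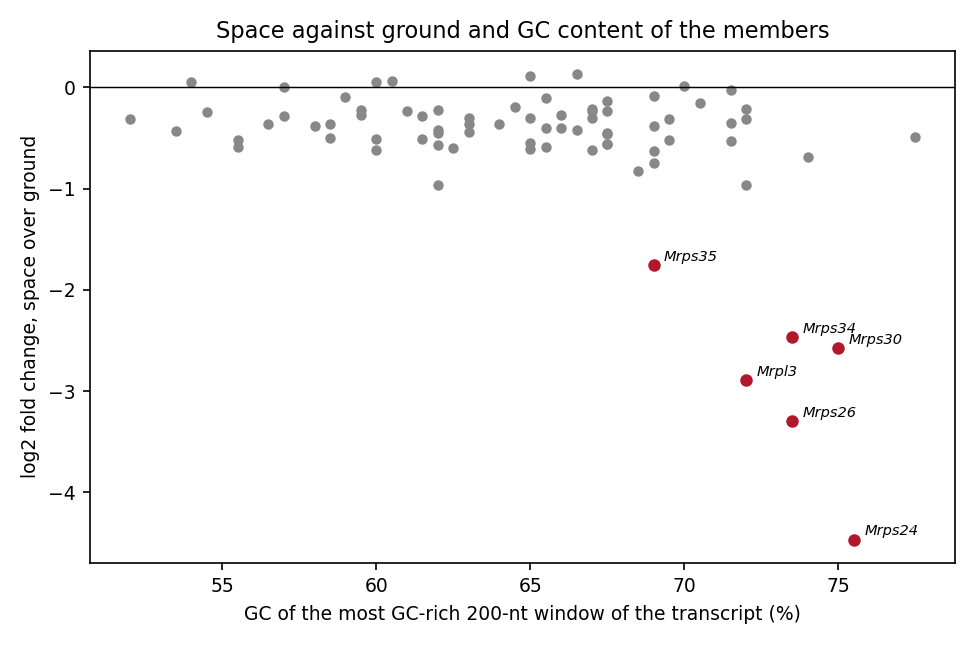
Log2 fold change of space over ground against the GC content of the most GC-rich 200-base window of the transcript, 1 point per member, with the 6 members at least 2-fold lower in red. The red points lie at or above 69% GC, where 16 other members lie between -0.97 and 0.01.

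Other genes needed for mitochondrial translation were compared in the same fit. Of the 5 ribosomal proteins without an Mrp symbol 1 fell (20%, against 5.31% of all genes). This was Gadd45gip1, a large subunit protein at the exit of the nascent peptide. It went from 93.6 ± 13.7 to 15.0 ± 3.68 CPM (SD, n = 4 each), a log2 fold change of -2.64 (SE 0.25; edgeR, adjusted p = 1.7e-04). The other 4 were not called, and the lowest p among them belonged to Chchd1, a small subunit protein, at 33.2 ± 9.37 CPM on the ground and 19.6 ± 4.94 CPM in space, a log2 fold change of -0.76 (SE 0.28; edgeR, adjusted p = 0.17).

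Of 26 genes for assembly of the mitochondrial ribosome and modification of its RNA, 6 fell (23.1%, against 5.31% of all genes) and 1 rose. Mpv17l2, an inner membrane protein needed for assembly, went from 58.5 ± 11.0 to 2.65 ± 0.684 CPM, with a log2 fold change of -4.46 (SE 0.29; edgeR, adjusted p = 4.5e-05). Malsu1, a large subunit assembly factor, went from 61.8 ± 26.2 to 3.05 ± 0.224 CPM, with a log2 fold change of -4.34 (SE 0.35; edgeR, adjusted p = 8.4e-05). Rbfa, Rcc1l, Noa1 and Mrm1 fell with log2 fold changes of -3.12, -2.27, -1.84 and -1.25. Dhx30, an RNA helicase of the mitochondrial RNA granules, rose from 112 ± 14.4 to 184 ± 22.3 CPM, with a log2 fold change of 0.72 (SE 0.18; edgeR, adjusted p = 0.047). The median over the 26 genes was -0.17.

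Among 14 mitochondrial translation factors 2 fell (14.3%, against 5.31% of all genes), with a list median of -0.11. These were Pde12, a nuclease that trims mitochondrial RNA tails, and Guf1, a back-translocating elongation factor, with log2 fold changes of -2.14 and -2.04. Among 17 aminoacyl-tRNA synthetases of mitochondria Cars2 and Yars2 fell (11.8%), with log2 fold changes of -2.09 and -1.49 and a list median of 0.09. Of 10 genes for transcription and stability of mitochondrial RNA only the helicase gene Supv3l1 was called (10%), with a log2 fold change of -1.28. Next in p came Twnk, the helicase of mitochondrial DNA replication, at 42.1 ± 16.2 CPM on the ground and 61.2 ± 20.5 CPM in space, which was not called.

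Of 13 messenger RNAs encoded in mitochondria, the templates of the ribosome, 2 fell (15.4%, against 5.31% of all genes). These were mt-Nd6 and mt-Nd2, subunits of complex I, with log2 fold changes of -2.20 (SE 0.44) and -2.81 (SE 0.57). All 13 had log2 fold changes below 0, with a median of -0.79. Of 9 transcription factors linked to mitochondrial biogenesis 1 fell (11.1%). This was Yy1, which went from 81.0 ± 19.8 to 26.1 ± 4.50 CPM, with a log2 fold change of -1.64 (SE 0.24; edgeR, adjusted p = 0.0023). Gabpb1, a subunit of the ETS factor GABP, had a log2 fold change of -0.73 (SE 0.23; edgeR, adjusted p = 0.11). Nrf1 and Gabpa, whose factors bind the cores printed above, were not called, with log2 fold changes of -0.13 (SE 0.17) and -0.15 (SE 0.27).

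Cytosolic ribosomal proteins and nuclear subunits of oxidative phosphorylation lay on the same side of 0 as the members. Of 78 cytosolic ribosomal protein genes 2 fell (2.56%, against 5.31% of all genes) and 74 were below 0, with a median of -0.35. Of 85 oxidative phosphorylation genes tested 4 fell (4.71%) and 72 were below 0, with a median of -0.27. The members' median was -0.38, and no difference between these lists was tested.

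Loss of Rad9 was examined by setting the 4 R9del libraries against the 4 R9wt libraries. At D5 the genotypes also differed in the number of cells seeded, which cannot be told apart from genotype there. By the quasi-likelihood test of edgeR, 0 members were called in either direction, against 1.04% of all genes upwards and 0.764% downwards. At an unadjusted p under 0.05, 2 members were higher (9% of all genes were) and 4 lower (11.2% of all genes). Leaving out 1 library gave 0 to 10 higher, with 10 without the ground library of R9wt D1, and 2 to 5 lower. DESeq2's Wald test called 1 member lower, against 5.18% of all genes, and 0 higher, against 4.76%. With matched pairs as a block, 9 members (11.7%) were higher at the unadjusted threshold, against 14.4% of all genes, and 4 lower, against 14.3%. The median log2 fold change of the members was 0.05 with 42 of 77 above 0, against -0.06 and 46.2% above 0 (53.8% below) for all genes. It was -0.08 without the space library of R9wt D1 and 0.22 without the ground library of R9wt D1, so its sign is not settled. Groups did not overlap for 1 member higher in R9del (7.07% of all genes) and 2 lower (7.2%). R9del was above R9wt in all 4 pairs for 13 members (19% of all genes) and below it in all 4 for 8 (19.2%).

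The pairs differed with location. The median log2 ratio of R9del over R9wt was -0.23 for Ground D1, 0.00 for Ground D5, 0.16 for Space D1 and 0.43 for Space D5, and the member was higher in R9del in 18, 39, 52 and 64 of 77 cases. A ratio of at least 2-fold upwards was reached by 0, 1, 5 and 7 members in this order (12.3%, 18%, 18.7% and 13.3% of all genes) and downwards by 1, 0, 2 and 0 (12.7%, 15.4%, 17.1% and 14.5%).

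Mrpl46, a mitochondria-specific protein of the large subunit, was at 77.9, 35.1, 27.3 and 45.1 CPM in R9wt and at 88.5, 75.7, 70.0 and 82.9 CPM in R9del, in the order ground D1, ground D5, space D1, space D5. It was higher in R9del in all 4 pairs but the ground D1 library of R9wt reached the R9del range, and the log2 fold change was 0.77 (SE 0.32; edgeR, adjusted p = 0.21). Mrpl49, from the same subunit, was at 88.8, 67.7, 53.9 and 60.2 CPM in R9wt and 108, 90.6, 96.9 and 90.3 CPM in R9del, without overlap, and its log2 fold change was 0.51 (SE 0.22; edgeR, adjusted p = 0.22). Mrpl37 and Mrpl22, a mitochondria-specific protein and the counterpart of a bacterial protein lining the exit tunnel, had log2 fold changes of 0.44 and 0.51.

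On the lower side Mrpl53 was at 6.32, 6.87, 7.81 and 7.58 CPM in R9wt and 4.31, 3.91, 3.35 and 4.36 CPM in R9del. Its groups did not overlap, and the log2 fold change was -0.84 (SE 0.27; edgeR, adjusted p = 0.13). DESeq2's Wald test gave an adjusted p of 0.0103 for it. Exons of Ccdc142, on the same strand, cover 87.1% of the exon length of Mrpl53, so that reads of the 2 genes could have been shared in counting. Of other members named, the overlapped share was 53.7% for Mrps25, 41.9% for Mrpl48 and 30.5% for Mrps18b. Mrpl28, which encodes bL28m, was at 334, 442, 334 and 206 CPM in R9wt and at 173, 228, 162 and 217 CPM in R9del, with overlap and a log2 fold change of -0.75 (SE 0.26; edgeR, adjusted p = 0.15). Mrps33 and Mrpl42 had log2 fold changes of -0.75 and -0.59, and both were lower in R9del in all 4 pairs.

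Of the accompanying lists, the biogenesis factors held 1 call with genotype, Myc, a transcription factor of growth, which rose from 7.84 ± 5.38 CPM in R9wt to 61.1 ± 21.7 CPM in R9del (SD, n = 4 each), a log2 fold change of 2.96 (SE 0.57; edgeR, adjusted p = 0.042). Of the 78 cytosolic ribosomal protein genes, Rpl39l rose from 3.75 to 13.8 CPM (log2 fold change 1.88; edgeR, adjusted p = 0.044) and Rps27 fell from 40.8 to 19.7 CPM (-1.05; edgeR, adjusted p = 0.0499). In that list 70 genes were below 0 with a median of -0.46, and 26 were lower at an unadjusted p under 0.05. Of 5 mesendoderm markers all were below 0 in R9del, with a median of -1.16 and 2 lower at an unadjusted p under 0.05. Of 3 neural markers tested, all above 0 with a median of 0.45, Tubb3 rose from 13.9 to 87.2 CPM (log2 fold change 2.65; edgeR, adjusted p = 0.034), and the part of these markers in the genotype differences was not tested. No oxidative phosphorylation subunit, translation factor, assembly factor, synthetase, gene for mitochondrial RNA or mitochondrially encoded messenger was called with genotype. The lowest p among the last belonged to mt-Cytb, a subunit of complex III, with a log2 fold change of 1.42 (SE 0.52; edgeR, adjusted p = 0.17).

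Culture duration was examined by setting the 4 D5 libraries against the 4 D1 libraries. The days also differed in cells seeded, temperature controller and time of fixation, which cannot be told apart from duration. No member passed the adjusted threshold in edgeR's quasi-likelihood test, and none of the 20544 genes tested did (0% in each direction). At an unadjusted p under 0.05 the count of members was 0 in both directions, against 3% of all genes upwards and 1.37% downwards, and DESeq2's Wald test also called 0, against 0.381% of all genes upwards and 0.0587% downwards. The member median was -0.04 with 32 of 77 above 0, against -0.01 and 48.8% above 0 (51.2% below) for all genes. D5 was above D1 in all 4 pairs for 4 members (10.5% of all genes) and below it in all 4 for 3 (9.25%). In single pairs the median log2 ratio of D5 over D1 was -0.35 in ground R9wt, -0.14 in ground R9del, 0.03 in space R9wt and 0.34 in space R9del. All 13 mitochondrially encoded messengers were below 0 with day (median -0.70). All 6 primitive endoderm markers (median 1.32) and all 5 trophoblast markers tested (median 1.15) were above 0, with 3 of each at the unadjusted threshold. Of cytosolic ribosomal protein genes 30 of 78 were below 0, and of oxidative phosphorylation genes 50 of 85. The part of these lists was not tested.

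The largest log2 fold change with day belonged to Mrps30 at 1.09 (SE 0.80; edgeR, adjusted p = 1.00), whose D5 library was above its D1 library in all 4 pairs. It was 0.55 without the ground library of R9wt D5 and 1.67 without that of R9wt D1. Mrpl27, the counterpart of a bacterial protein at the peptidyl transferase centre, was at 11.6, 15.4, 9.20 and 9.32 CPM at D1 and 16.4, 16.3, 11.7 and 16.3 CPM at D5, for ground R9wt, ground R9del, space R9wt and space R9del. D5 was the higher in each pair and the groups overlapped, with a log2 fold change of 0.41 (SE 0.30). On the other side Mrps18b, of the small subunit, was at 275, 165, 155 and 102 CPM at D1 and 126, 118, 97.9 and 129 CPM at D5, with a log2 fold change of -0.57 (SE 0.30). Mrps12 and Mrpl23, which sits at the exit of the tunnel, had log2 fold changes of 0.30 and 0.24, and Mrpl34, Mrpl36 and Mrpl18, all with bacterial homologues, had -0.55, -0.41 and -0.43. Leaving out 1 library moved Mrps12 between 0.10 and 0.53, Mrpl23 between 0.0927 and 0.44 and Mrpl36 between -0.55 and -0.12.

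Whether the difference between space and ground depended on genotype or day was tested with interaction terms, the remaining condition being a covariate. In edgeR's test 0 members had a term with an adjusted p under 0.05, and so had 0% of all genes. Every library enters each interaction term, so members do not count as independent. Space R9del D5 and ground R9wt D1 enter each term with a positive sign. The 71 other members summed to 5519 CPM in the former (4144 to 4546 in the other space libraries) and 6882 CPM in the latter (5298 to 5718 in the other ground libraries). No interaction was refitted without a library, and the part of single libraries was not tested. The location by genotype term was above 0 for 72 of 77 members, against 52.1% of all genes, with a median of 0.45. It was below 0 for 6 of 78 cytosolic ribosomal protein genes (median 0.35), 9 of 85 oxidative phosphorylation genes (median 0.39) and 1 of 10 stem cell markers (median 0.43). The same side prevailed in these lists, but not in others. All 5 trophoblast markers tested were below 0 (median -0.76), as were 8 of 13 mitochondrially encoded messengers (median -0.17). The term was below 0 for 8 of 17 mitochondrial synthetases and 7 of 14 translation factors (medians 0.003 and 0.06). It passed an unadjusted p under 0.05 upwards for 2 members (2.6%), against 1.6% of all genes, and downwards for 0, against 1.38%. These were Mrps24 at 1.42 (SE 0.36; edgeR, adjusted p = 1) and Mrps34 at 1.10 (SE 0.45; edgeR, adjusted p = 1), which says that the fitted space to ground ratio was closer to 1 in R9del.

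The location by day term was above 0 for 68 members, against 50.8% of all genes, and below 0 for 9, against 49.2%, with a median of 0.49. At an unadjusted p under 0.05 it was positive for 10 members (13%), against 3.1% of all genes, and negative for 0, against 3.54%. Of 85 oxidative phosphorylation genes it was below 0 for 14 (median 0.46), with 7 positive and 1 negative at that threshold. Of 78 cytosolic ribosomal protein genes it was below 0 for 24 (median 0.16), with 2 positive and 0 negative. Of 9 biogenesis factors it was below 0 for 6 (median -0.18). All 6 primitive endoderm markers had this term above 0, with a median of 1.86, and 5 of them at an unadjusted p under 0.05. Their part in the members' terms was not tested. Without genotype as a covariate it was positive for 1 member (1.3%), against 0.706% of all genes, and negative for 0, against 1.5%. The lowest p-values belonged to Mrpl17, which encodes bL17m, with a term of 1.01 (SE 0.35), and to Mrps7, with a term of 1.23 (SE 0.46), both at an adjusted p of 0.72 in edgeR's test. Mrpl17 was at 120, 72.3, 91.3 and 82.5 CPM on the ground and at 63.3, 99.6, 69.1 and 96.3 CPM in space, for R9wt D1, R9wt D5, R9del D1 and R9del D5. Its space libraries were below the ground at D1 and above it at D5 in both genotypes. The genotype by day term, which does not involve location, was also above 0 for 68 of 77 members, against 52.3% of all genes, and below 0 for 9, against 47.7%, with a median of 0.30. It passed the unadjusted threshold for 0 members, against 1.36% of all genes upwards and 3.04% downwards. Mrps18b (0.86, SE 0.41) and Mrps25 (0.72, SE 0.43) were lowest in p. This term was below 0 for 10 of 78 cytosolic ribosomal protein genes (median 0.35) and 10 of 85 oxidative phosphorylation genes (median 0.53). It was below 0 for 4 of 5 trophoblast markers (median -2.81, 3 at the unadjusted threshold) and 5 of 6 primitive endoderm markers (median -0.73). The part of these markers was not tested.

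Levels per kilobase of exon, averaged over the 8 libraries, spread widely among the members. The highest belonged to Mrpl42 at 221 CPM per kb, Mrpl28 at 206 and Mrpl45 at 158, the last encoding the protein that holds the ribosome at the inner membrane. The lowest belonged to Mrpl48 at 4.14 CPM per kb, Mrpl13 at 6.10 and Mrps26 at 7.30. The place of Mrps26 came from the space libraries, where it was the lowest member at 1.35 CPM per kb, while on the ground it stood at 13.2 CPM per kb and ranked 12 from the bottom. Mrpl48 and Mrpl13 were the lowest on the ground, at 4.48 and 7.06 CPM per kb. Exon length here is the union of all annotated exons, so a gene with many annotated transcripts is scaled down. Mrpl45, in CPM, was at 519, 401, 451 and 401 on the ground and at 335, 290, 376 and 505 in space, with overlap and a log2 fold change of -0.23 (SE 0.21). Of the 5 members of special role, Mrps30 was called lower in space (log2 fold change -2.58, SE 0.38; edgeR, adjusted p = 0.0026). Mrps36 had a log2 fold change of -0.22 (SE 0.28) between space and ground, and Mrps18a one of -0.28 (SE 0.22). Mrpl58, a peptidyl-tRNA hydrolase that rescues stalled ribosomes, was at -0.45 (SE 0.29) and Mrpl12 at -0.63 (SE 0.31). None of these 4 was called.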

How the data were processed

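Paired-end reads of mRNA libraries were mapped by the authors to the mm9 mouse genome with TopHat 2.0.9, and the deposited values are raw counts per Ensembl gene without normalization or filter. The counting program, annotation and strand handling are not given in the sources used here. Identifiers were named with GENCODE on the same build, which holds 32722 of the 50686 identifiers (64.6%), and with RefSeq synonyms. All columns were used, and every row names a gene. The members and gene lists were chosen with earlier results of these data known.

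From the counts, edgeR 4.0.16 (R 4.3.3) gave TMM factors over the 8 libraries, and filterByExpr with a minimum count of 10 kept 20544 genes, among them all 77 members. Groups of 4 against 4 were tested with edgeR's quasi-likelihood test without covariates, with Benjamini-Hochberg adjustment over all genes. A standard error is the log2 fold change divided by the square root of that test's F. DESeq2 1.42.0, with shares taken over the genes to which it gave an adjusted p, was an alternative, as were other scalings, no filter, a block of matched pairs, an additive fit and leaving out each library. Single-library log2 ratios used a prior count of 2. A count of 0 allows up to 3 counts, or at most 0.0515 CPM at these depths, counting error only. Reads carry no molecular identifiers. The edgeR function was tested on simulated counts of independent replicates, which the libraries of a group here are not. The other steps were not tested in this way.

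Named members were, in each comparison, those called in a direction, filled up where fewer than 4 with the lowest p-values, then the 2 lowest p-values of each interaction, the 3 highest and 3 lowest levels per kilobase and 5 members of special role. From the accompanying lists the 2 genes of lowest p per list were eligible. Mrps15, Mrps12 and Mrps7 in the comparison of space with ground, the called genes beyond those 2, Nrf1, Gabpa, the single markers and the neighbours of overlapping members were named after their values were seen. The 4 pairs share genotype and day in the labels. Their deviations from the group means correlated at 0.283 to 0.609 for location, 0.349 to 0.488 for genotype and 0.375 to 0.575 for day, so the block was used as a paired alternative.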

Additional observations from a re-analysis of the deposited data

Results flagged for a closer look

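In 54 groups of 4 libraries, covering the named members in each comparison, 5 had a library farther from the other 3 than Dixon's 95% limit allows, and chance gives about 1 in 20. Mrps35 was flagged at both locations, with 27.5 CPM in the space library of R9del D5 against 16.4 to 16.8 in the other space libraries, and 48.7 CPM in the ground library of R9wt D5 against 68.6 to 72.4 in the other ground libraries. In the ground library of R9wt D1, Mrps5 stood at 120 CPM against 83.2 to 88.3 in the other ground libraries, and Mrpl37 at 120 CPM against 73.9 to 80.5 in the other R9wt libraries. Mrpl27 stood at 11.7 CPM in the space library of R9wt D5, against 16.3 to 16.4 in the other D5 libraries.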

How the results depend on the processing

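Nearly all results kept their direction and their side of the threshold. Of the counts and medians 342 values moved within 1.5 times or the spread and 43 moved further, and of the single-gene values 440 stayed, 6 changed sign, 3 lost and 1 gained the adjusted threshold. The count of 7 members lower in space was 7 with matched pairs as a replicate block, 7 under DESeq2 size factors and 7 under library size alone, 8 in the additive fit and 9 by the Wald test of DESeq2. It was 6 to 7 leaving out 1 library, the 6 arising without the ground library of R9wt D1, the space library of R9wt D5 or that of R9del D5. At an unadjusted p it ranged from 11 (without the space library of R9wt D5) to 31 (without that of R9del D5), with 12 without the ground library of R9wt D1 and 13 without the space library of R9del D1. Leaving out 1 library moved the log2 fold change between space and ground of Mrpl50 between -0.0151 and 0.14, of Mrpl53 between -0.066 and 0.30 and of Mrpl35 between -0.10 and 0.22, so their signs are not settled, that of Mrps5 between 0.0826 and 0.27, and that of Mrpl1 between -1.03 and -0.89.

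For R9del against R9wt the members higher at an unadjusted p were 4 with library size alone, 9 with the replicate block and 7 in the additive fit, and 0 to 10 leaving out 1 library, with 10 without the ground library of R9wt D1. Those lower were 2 to 5, the 2 arising without the ground library of R9wt D5, that of R9del D1 or the space library of R9del D1, and those at least 2-fold changed with an unadjusted p under 0.05 were 0 to 2. DESeq2's Wald test called 1 member, Mrpl53 (log2 fold change -0.83, adjusted p = 0.0103). For D5 against D1, 1 member was higher at an unadjusted p with the replicate block and 1 in the additive fit, and 0 to 1 were lower leaving out 1 library. The block changed no other call. The median with day was -0.18 to 0.13 leaving out 1 library, and of the day values named, none called, Mrpl27 from 0.30 to 0.59, Mrps18b from -0.75 to -0.26, Mrpl34 from -0.77 to -0.27 and Mrpl18 from -0.64 to -0.25. The location by genotype term was positive at an unadjusted p for 1 member with library size alone. The location by day term was positive for 1 without the covariate and negative for 1 with DESeq2's Wald test. In single pairs the 1 member at least 2-fold lower in R9del than R9wt on the ground at D1 became 0 with DESeq2 size factors and 0 with library size alone, and the 1 at least 2-fold higher at D5 than D1 in space R9del became 0 with library size alone. The causes of these shifts were not tested.

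Summed CPM followed the scaling. With DESeq2 size factors it was 7114 and 5804 in ground R9wt D1 and D5, 5622 in ground R9del D5, 4358 and 4230 in space R9wt D1 and D5, and 4665 and 5698 in space R9del D1 and D5. With library size alone the same libraries gave 6859, 5522, 5786, 4410, 4212, 4788 and 5734, and ground R9del D1 gave 6205. In both scalings the space library of R9del D5 lay above the lowest ground library, which it did not with TMM. The lowest level of a member in a library, 2.65 CPM, was far above the limit of 0.0515 CPM.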
